A study of Mus musculus with 12 samples.

Results

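The genes described here are the mouse cytochrome P450 genes of families 1 to 4. They were taken from the deposited expression table as every gene symbol made of Cyp, a family number from 1 to 4, a subfamily letter, a gene number and at most 1 closing letter. This gave 69 genes of the 24296 with a symbol, in 19 subfamilies. Cytochromes P450 are heme enzymes of the endoplasmic reticulum that put an oxygen atom into their substrates, with electrons passed on by P450 reductase and cytochrome b5. Liver holds more of them than any other organ, most of them in hepatocytes and many of them in the hepatocytes around the central vein, where they oxidise drugs, solvents, steroids, bile acids and fatty acids. Carbon tetrachloride (CCl4) becomes toxic through this chemistry, since P450s, Cyp2e1 above all, reduce it to a radical.

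Total RNA was sequenced from 12 livers of male C57/BL6N mice, 3 in each of 4 groups. Control mice received no CCl4. Model mice had CCl4 in olive oil injected into the abdominal cavity, 5 mL/kg, 2 times a week over 8 weeks, which scars the liver. Silibinin mice had the same injections and, from week 5, silibinin, a milk thistle flavonolignan, and phloridzin mice had the injections and, from week 5, the high dose of phloridzin, a dihydrochalcone glucoside of apple trees, at 40 mg/kg. The dose of silibinin in mg/kg was lower than that of phloridzin, so a difference between the drug groups is also one between doses, and no liver had a drug without CCl4. The deposited values are FPKM, fragment numbers divided by transcript length and library size, so levels of different genes can be set side by side on that scale. Libraries held 105 to 109.6 M fragments in the control group, 83.7 to 101 M in the model group, 107 to 111 M in the silibinin group and 98.5 to 105 M in the phloridzin group. Values of all transcripts of a gene were summed in each liver.

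Members spanned the whole range of expression. Averaged over the 12 livers, 14 members had a summed FPKM of at least 100, 20 lay between 10 and 100, 17 between 1 and 10, and 18 were under 1. Cyp3a11, the main drug-oxidising P450 of mouse liver, had the highest mean level (1338 FPKM, 23.2% of the FPKM of all members). Cyp2e1, which oxidises small solvents and ethanol besides CCl4, came next with 1217 FPKM (21.1%). After them came Cyp2f2, which oxidises naphthalene and is known from periportal hepatocytes and airway cells, at 380.2 FPKM (6.61%). Under the filter used for testing, a mean of at least 0.5 FPKM, 54 members remained, and 15 did not pass. Of the 54, 4 passed only through the group where they were highest: Cyp1a1 (model), Cyp2b9 (silibinin), Cyp2c69 (control) and Cyp2s1 (phloridzin), singled out after their values were seen. The 15 had means of at most 0.370 FPKM and a highest value of 3.00 FPKM in any liver. They include Cyp2b13, Cyp2g1 and Cyp2t4, and Cyp2d34, which was listed at 0 in all 12 livers and is named here after its values were seen. Cyp2g1, a P450 of the nasal lining, was between 0.106 and 0.709 FPKM, Cyp2t4 between 0 and 0.145, and the female-biased Cyp2b13 between 0 and 0.0203.

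By subfamily, Cyp3a held 28.2% of the members' FPKM over the 12 livers, Cyp2e 21.1%, Cyp2c 16.1%, Cyp4a 7.17%, Cyp2d 6.70%, Cyp2f 6.61%, Cyp2a 5.21%, Cyp1a 3.87%, Cyp4f 2.20% and Cyp4v 1.53%. Many of these genes lie in tandem clusters. On mouse build GRCm38 the 14 Cyp2c members lie on chromosome 19, the 9 Cyp3a members on chromosome 5, the 8 Cyp2d members on chromosome 15, and the 6 Cyp4a members on chromosome 4 between bases 115299046 and 115621602. Subfamilies Cyp2a, Cyp2b, Cyp2e, Cyp2f, Cyp2g, Cyp2r, Cyp2s and Cyp2t are all on chromosome 7. The order of the subfamilies by FPKM differed between groups. In control livers Cyp2e was first with 40.5% of the members' FPKM and Cyp3a held 13.4%, while in model livers Cyp3a held 28.7% and Cyp2e 11.8%. Cyp3a was also first in silibinin livers (37.1%, with Cyp2e at 17.8%) and in phloridzin livers (36.3%, with Cyp2e at 7.89%).

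**Figure D1:**
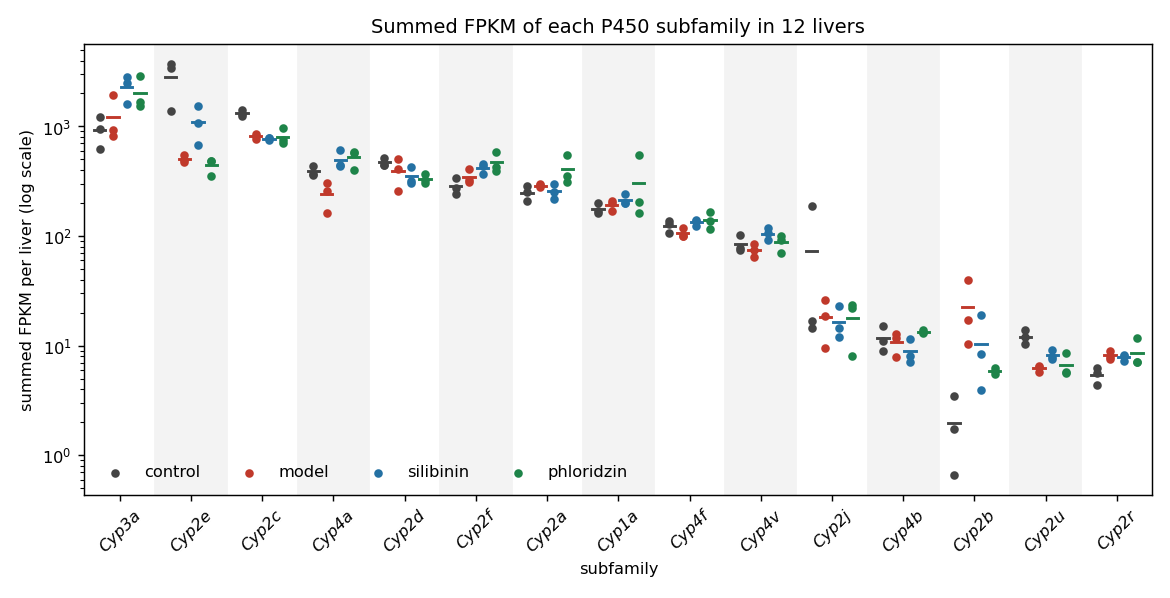
Summed FPKM of each subfamily in each of the 12 livers, on a log scale, for the 15 subfamilies with more than 0.1% of the members' FPKM. Points are livers, coloured by group, and bars are group means. The 3 control points of Cyp2e, between 1373 and 3679 FPKM, stand above all 3 model points, between 475 and 548, and the 3 control points of Cyp2b stand below all others.

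Added over all 69 members, the FPKM was 7438, 5895 and 7497 in control, 3496, 3928 and 5349 in model, 5759.8, 6066 and 6838 in silibinin and 5479, 6374 and 4936 in phloridzin livers. All 3 model livers were below all 3 control livers and all 3 silibinin livers. Phloridzin livers overlapped both control livers and model livers, since phloridzin 3 was below model 3 and phloridzin 2 was above control 2. The ratio of group means was 0.613 for model to control, 1.46 for silibinin to model, 1.31 for phloridzin to model, 0.896 for silibinin to control, 0.806 for phloridzin to control and 0.900 for phloridzin to silibinin. Scaled by median ratios between livers, these became 0.448, 1.71, 1.49, 0.764, 0.669 and 0.876, with no change of side. Single subfamilies did change side with this scaling. In model to control these were Cyp1a (1.08 to 0.796), Cyp2a (1.16 to 0.852), Cyp2f (1.22 to 0.891), Cyp2s (1.16 to 0.842) and Cyp3a (1.31 to 0.960). In silibinin to model they were Cyp2a (0.886 to 1.04), Cyp2c (0.949 to 1.10), Cyp2d (0.900 to 1.04), Cyp2j (0.905 to 1.03) and Cyp2r (0.968 to 1.13), and in phloridzin to model Cyp2c (0.985 to 1.12) and Cyp2j (0.982 to 1.09). Against control they were Cyp2a (1.03 to 0.883) and Cyp4f (1.08 to 0.922) for silibinin and Cyp4b (1.15 to 0.962), Cyp4f (1.12 to 0.946) and Cyp4v (1.04 to 0.861) for phloridzin. Sums are dominated by a few genes, and they got no test.

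The plot of subfamily sums also shows which subfamilies moved apart. For Cyp2c, whose members oxidise arachidonate, drugs and bile acids, the sums were 1408, 1242 and 1293 in control, 776, 817 and 859.6 in model, 781, 754 and 793 in silibinin and 745, 971 and 700.4 in phloridzin livers. Every control liver was above every CCl4 liver, with or without a drug, and the sums of the 3 CCl4 groups overlapped. For Cyp3a the sums were 629, 1208 and 957 in control, 814, 927 and 1929.7 in model, 1595, 2489 and 2834 in silibinin and 1553, 2862 and 1677 in phloridzin livers. Silibinin and phloridzin livers were all above control livers, while model livers overlapped control livers, and their ratio to control of 1.31 became 0.960 with median-ratio scaling. For Cyp4a, which hydroxylates the ends of fatty acid chains, the sums were 372, 438 and 359 in control, 163, 255 and 308 in model, 444, 432 and 616 in silibinin and 575, 400.0 and 591 in phloridzin livers. All model livers were below the livers of each other group. The 8 Cyp2d members summed to 445, 516 and 446 in control, 259.9, 407 and 506 in model, 321, 431 and 304 in silibinin and 365, 304 and 324 in phloridzin livers, with all drug-treated livers below all control livers and model livers on both sides.

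Each comparison answers its own question. Model against control asks what 8 weeks of CCl4 did, each drug against model asks what the drug added under CCl4, each drug group against control asks how far from healthy liver it stood, and phloridzin against silibinin sets the drugs beside each other. All 6 come from 1 limma fit on log2(FPKM + 1) over 13158 genes, and a gene was called where its Benjamini-Hochberg adjusted p was under 0.05 and its log2 fold change lay beyond 1 in size. On this scale the change of a gene with low FPKM is understated. The comparisons share groups: model livers are in 3 of them and control livers in 3.

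In model against control, 7 of the 54 tested members rose, 13.0% of them, where 9.42% of all tested genes rose, and 9 fell, 16.7%, where 1.08% of all tested genes fell. The rising members were Cyp1b1, Cyp2a4, Cyp2a22, Cyp2b10, Cyp2c55, Cyp4f16 and Cyp4f18, and the falling ones Cyp2c37, Cyp2c50, Cyp2c54, Cyp2c69, Cyp2e1, Cyp4a12a, Cyp4a12b, Cyp4a32 and Cyp4f15. The mRNAs of Cyp2c37, Cyp2c50 and Cyp2c54 are near-identical (94.8% to 95.8%), as are those of Cyp4a12a and Cyp4a12b (98.3%). A fragment can be given to the wrong gene, so falls within these groups are not independent of each other. Cyp2c69 passed the filter only through the control group, which favours a fall against control, and it was also called without the filter. The rising members were low in control livers, with mean levels between 0.159 FPKM (Cyp2a4) and 1.95 FPKM (Cyp2b10). Of the falling members, 8 had a mean above 20 FPKM in control livers, and Cyp2c69 had 3.87 FPKM. On log2(FPKM + 1) with a cutoff of 1, a gene with a control mean under 1 FPKM cannot be called lower. This difference in control level is therefore partly set by the rule for a call. The median log2 fold change of the 54 members was -0.17, and that of all 13158 tested genes 0.34. By limma 28 of the 54 members (51.9%) and 6030 of all genes (45.8%) had an unadjusted p under 0.05. With the libraries scaled by median ratios, which sets the median of all genes near 0 (0.01), 5 of 53 members were called higher and 14 lower, beside 526 and 453 of all 13086 genes, and the members' median was -0.61. The additional falls under that scaling were Cyp2c29, Cyp2u1, Cyp4a10 and, named here after their values were seen, Cyp2c38 and Cyp2c40, and the calls of Cyp4f16 and Cyp4f18 were lost.

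In silibinin against model, 4 members rose (7.41% of the 54, beside 0.745% of all tested genes) and 2 fell (3.70%, beside 3.25%). Cyp4a10, Cyp4a31, Cyp4a32 and Cyp4f15 were higher, and Cyp1a1 and Cyp2a4 lower. The mRNAs of Cyp4a10, Cyp4a31 and Cyp4a32 are near-identical (95.8% to 97.3%), so the rises of these genes are not independent of each other. Cyp1a1 passed the filter only through the model group, which favours a fall against model, and it was also called without the filter. The members' median was 0.21, and that of all tested genes -0.15. An unadjusted p under 0.05 was found for 14 of the 54 members (25.9%) and 3844 of all genes (29.2%). With median-ratio scaling the split was 4 higher and 0 lower by limma, beside 189 and 241 of all 13086 genes, and 17 of 53 members (32.1%) and 3467 genes (26.5%) had an unadjusted p under 0.05. The 4 rises depended on single livers: 0 were called without model replicate 2, silibinin replicate 1 or silibinin replicate 3, and 1 without model replicate 1 or silibinin replicate 2. The count of 2 lower became 0 without model replicate 1 or silibinin replicate 1, and 1 without control replicate 1, 2 or 3 or silibinin replicate 2, where Cyp2a4 was lost. Without model replicate 3 or silibinin replicate 3 it was also 1, but both Cyp1a1 and Cyp2a4 were lost, and the lower member was Cyp2c70 in the former (-1.08, adjusted p = 0.030 by limma) and Cyp2a5 in the latter (-2.50, adjusted p = 0.021).

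In phloridzin against model, 2 members rose (3.70%, beside 0.6% of all tested genes), Cyp4a12b and Cyp4f15, and 1 fell (1.85%, beside 2.92%), Cyp2a4. The members' median was 0.21 and that of all tested genes -0.11. By limma 11 of the 54 members (20.4%) and 3662 of all genes (27.8%) had an unadjusted p under 0.05. Median-ratio scaling gave 3 higher, with Cyp4a12a added, and 1 lower, beside 140 and 239 of all 13086 genes. Without model replicate 1 or 2 or phloridzin replicate 3, 1 member was called higher. The fall was lost (0 lower) without model replicate 1 or 3 or phloridzin replicate 2 or 3, and 3 members were lower without model replicate 2 or phloridzin replicate 1.

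Against control, silibinin livers had 4 members higher (7.41%, beside 1.74% of all tested genes), Cyp2a22, Cyp2c55, Cyp4a31 and Cyp4f16, and 1 lower (1.85%, beside 0.243%), Cyp2c37. With median-ratio scaling these counts were 2 and 4, beside 150 and 53 of all 13086 genes. Leaving out control replicate 1 gave 2 higher, and leaving out control replicate 2 or silibinin replicate 1 or 2 gave 1. The count of 1 lower became 2 without control replicate 2 or 3 or model replicate 3, 4 without phloridzin replicate 1 and 5 without silibinin replicate 3. The members' median was -0.09 (-0.31 with median-ratio scaling) and that of all tested genes 0.16 (-0.02). By limma 27 of the 54 members (50%) and 2830 of all genes (21.5%) had an unadjusted p under 0.05.

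Phloridzin livers had 3 members higher than control (5.56%, beside 2.74% of all tested genes), Cyp2a22, Cyp2c55 and Cyp4f16, and 4 lower (7.41%, beside 0.289%), Cyp2c37, Cyp2c54, Cyp2c69 and Cyp2e1. With median-ratio scaling these counts were 2 and 6, beside 187 and 62 of all 13086 genes. Leaving out control replicate 2 or phloridzin replicate 1 gave 1 higher, and leaving out phloridzin replicate 2 gave 5. Without control replicate 1 or 2, 2 members were lower. Cyp2c37 and Cyp2c54 have near-identical mRNAs, so their falls are not independent of each other. Cyp2c69 passed the filter only through the control group, and its call was lost without the filter. The members' median was 0.08 (-0.13 with median-ratio scaling) and that of all tested genes 0.18 (-0.01). By limma 23 of the 54 members (42.6%) and 3235 of all genes (24.6%) had an unadjusted p under 0.05.

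Between phloridzin and silibinin livers, limma called 0 members higher (beside 0.0076% of all tested genes) and 0 lower (beside 0.0152%), and the voom fit on recovered fragments also called 0 and 0. At an unadjusted p under 0.05 stood 6 of the 54 members (11.1%) and 494 of all 13158 genes (3.75%). The members' median was -0.03 and that of all tested genes 0.03.

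**Figure D2:**
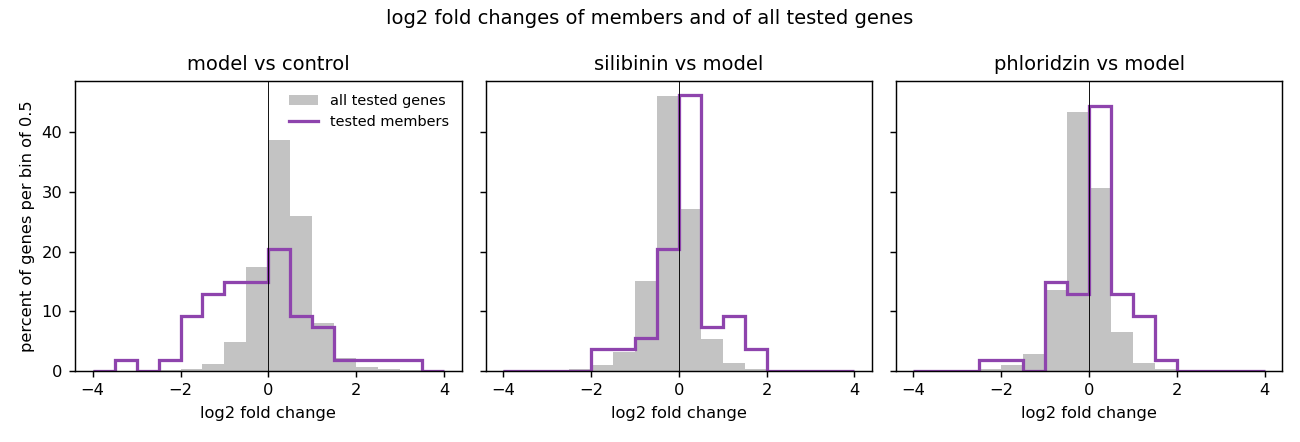
Distribution of the log2 fold change of the 54 tested members (line) and of all 13158 tested genes (grey) in model against control, silibinin against model and phloridzin against model, as percent of genes in bins of 0.5. In the first comparison the members spread from -3.48 to 3.38 and reach further to the left than the bulk of all genes.

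**Figure D3:**
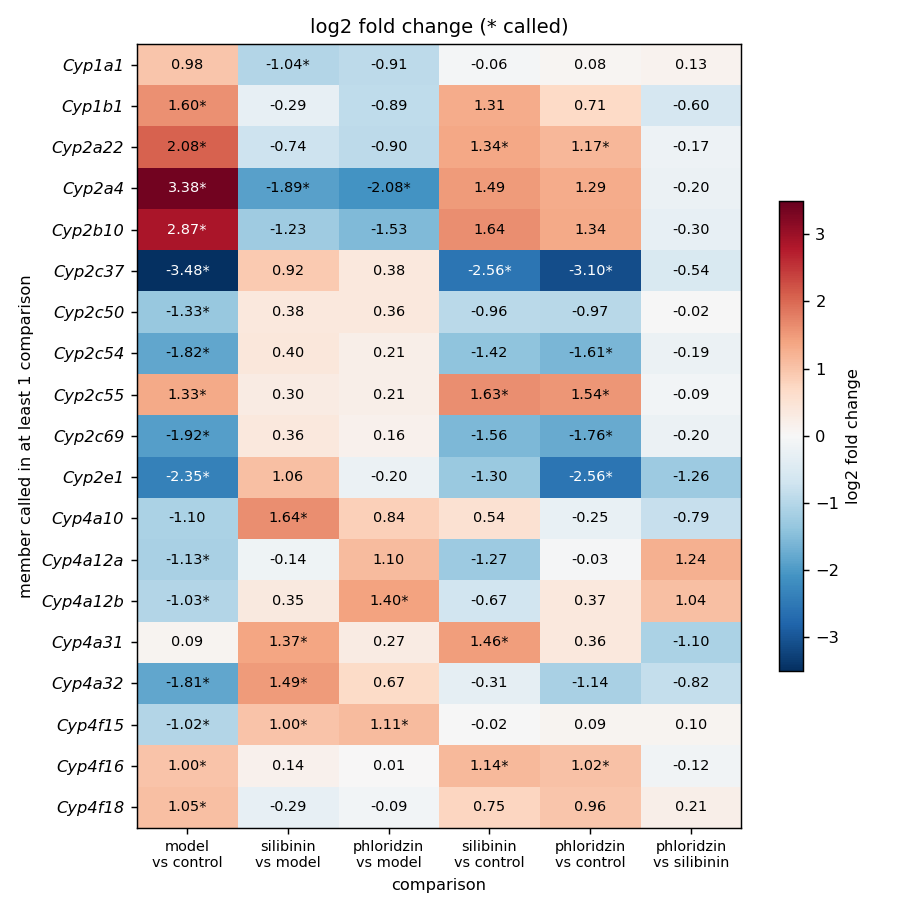
log2 fold change of the 19 members called in at least 1 comparison, in all 6 comparisons. Red is higher and blue lower in the group named first, and an asterisk marks a call. Cyp2c37 is called lower in all 3 comparisons with control, at -3.48, -2.56 and -3.10.

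The map of fold changes holds 37 calls of 19 members. Of these 37, 14 were called in each of 9 other settings, of which Ensembl transcripts only holds the same sums by construction, and with each of the 12 livers left out in turn, 23 were lost in at least 1, and 0 changed sign. The 3 comparisons with model livers share those livers, and so do the 3 with control livers, so a member far off in 1 group appears in several columns of the map.

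Whole liver was sequenced, so fewer hepatocytes and less RNA per hepatocyte cannot be told apart. Of 12 hepatocyte markers 11 were in the table (Tf was not), none was at 0, and their summed FPKM, led by Alb, was 26853, 31636 and 30642 in control, 24766, 35665 and 34851 in model, 37296, 41738 and 27939.5 in silibinin and 28772, 38878 and 33795 in phloridzin livers. None of the 11 was called in any comparison by limma, although with median-ratio scaling Apoa2 was called lower in model than in control livers (-1.20, adjusted p = 0.0053). In model against control 4 of the 11 were above 0 and their median log2 fold change was -0.43 (-0.88 with median-ratio scaling), beside 0.34 over all tested genes. Alb made up a large share of the sums. Without it, an alternative chosen after the values were seen, they were 15882, 16015 and 19133 in control, 11583, 15080 and 11323 in model, 13489, 12381 and 14337 in silibinin and 9876, 15995 and 17126 in phloridzin livers, with every model and every silibinin liver below every control liver. Ttr was at only 39.8 FPKM in control 1 and 10.3 in phloridzin 1, and Serpina1a at 61.8 in model 1 and 65.6 in silibinin 1. Stellate cell and myofibroblast markers rose with CCl4. Of 10 markers, 6 (Col1a1, Col1a2, Col3a1, Lrat, Lum and Timp1) were higher and 0 lower in model than in control livers, and their summed FPKM, led by Dcn, was 76.6, 70.6 and 80.6 in control, 241, 239.7 and 282 in model, 244, 288 and 128 in silibinin and 342, 202 and 175 in phloridzin livers. Against control 3 of them were higher in each drug group. Macrophage markers, led by Lyz2, summed to 180.2, 301 and 256 in control, 429, 699 and 573 in model, 479, 636 and 495 in silibinin and 810.4, 805 and 432 in phloridzin livers, with 1 of 10 called higher in model and in silibinin and 6 of 10 in phloridzin livers against control, where 9.42%, 1.74% and 2.74% of all tested genes were higher. Cholangiocyte markers, led by Spp1, summed to 12.9, 14.5 and 19.5 in control, 48.8, 57.8 and 52.8 in model, 50.8, 51.5 and 26.4 in silibinin and 55.1, 28.6 and 28.0 in phloridzin livers, with 1 of the 4 tested called in model and 1 in phloridzin livers against control. Lymphocyte markers, led by Ptprc, went from 5.90 to 8.37 FPKM in control livers and 19.3 to 25.4 in model livers, with 1 of the 5 tested, Ptprc, called in each CCl4 group against control. Of the 8 endothelial markers, led by Clec4g, 0 were called by limma in these comparisons, and their sums were 74.8 to 86.0 in control, 78.1 to 96.1 in model, 46.0 to 91.1 in silibinin and 70.1 to 98.1 FPKM in phloridzin livers. In silibinin against model 0 of the 8 had a limma log2 fold change above 0, with a median of -0.37 beside -0.15 over all tested genes. No marker was at 0 in all livers. The part of these cells in the P450 values was not tested.

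Cyp2e1 stood first among the falls in level. Its FPKM was 3679, 1373 and 3386 in control, 475, 489 and 548 in model, 1554, 684 and 1087 in silibinin and 480.0, 357 and 488 in phloridzin livers. Every model and phloridzin liver was below every control liver, all 3 silibinin livers were above all 3 model livers, and control 2 was the lowest control and below silibinin 1. The means were 2812 ± 1255 FPKM in control, 504 ± 38.5 in model, 1108 ± 435 in silibinin and 442 ± 73.5 in phloridzin livers (SD, n = 3 livers). By limma the log2 fold change of model against control was -2.35 (adjusted p = 0.0014) and that of phloridzin against control -2.56 (adjusted p = 0.0063). Silibinin against model stood at 1.06 and did not pass (adjusted p = 0.097), and silibinin against control at -1.30 (adjusted p = 0.084). Without control replicate 2 both passed, at 1.06 (adjusted p = 0.038) and -1.75 (adjusted p = 0.033), as they did with the replicate block. The value of control 2 came from another transcript than in the other control livers, 1226 FPKM in a second protein-coding transcript and 57.6 in the transcript that gave 3627 and 3350 FPKM in control 1 and 3. With the most abundant transcript alone in place of the sum, the change of model against control was -1.07 (adjusted p = 0.60) and that of phloridzin against control -1.62 (adjusted p = 0.56). The call of phloridzin against control was also lost with only these 2 groups in the fit (adjusted p = 0.051).

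Because Cyp2e1 and neighbouring Cyp2c genes had the largest falls in FPKM, their promoters are shown, 250 bases before to 50 bases after the start site, from RefSeq on GRCm38.p6, plus strand. Cyp2e1 lies on chromosome 7 (chr7:140763569-140763868). Capitals mark matches, on either strand, to 6 short motifs: the TATA box TATAAA, the CCAAT box CCAAT, the HNF1 site GTTAAT, the C/EBP site TTGCNNAA, the nuclear receptor site AGGTCA and the AHR core GCGTG. In Cyp2e1 the TATA box is 31 bases before the start site and CCAAT boxes read on the other strand begin 68 and 210 bases before it. A match is a description of the letters, not evidence of a bound factor.
Cyp2e1: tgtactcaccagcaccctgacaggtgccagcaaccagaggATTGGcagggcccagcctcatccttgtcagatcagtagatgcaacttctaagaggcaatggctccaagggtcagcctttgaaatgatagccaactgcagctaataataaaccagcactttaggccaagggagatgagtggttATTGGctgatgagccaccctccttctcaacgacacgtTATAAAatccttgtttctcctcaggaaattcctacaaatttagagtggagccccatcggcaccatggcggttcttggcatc

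Cyp2c37, Cyp2c50 and Cyp2c54 are neighbouring genes of the pericentral liver whose enzymes oxidise arachidonate. Cyp2c37 had FPKM of 209.7, 181 and 124 in control, 10.4, 10.04 and 26.7 in model, 30.8, 29.6 and 23.1 in silibinin and 13.8, 26.7 and 17.7 in phloridzin livers. All control livers were far above all CCl4 livers. With a pseudocount of 1 this was the largest fall of any tested member in each comparison with control, but with voom the log2 fold change of the low Cyp2c69 lay further from 0 in all 3 (-7.53, -3.08 and -5.65, where Cyp2c37 was at least -3.91, -2.79 and -3.36 in any setting). The log2 fold change of Cyp2c37 was -3.48 in model (95% interval -4.28 to -2.68, adjusted p = 0.00015 by limma), -2.56 in silibinin (adjusted p = 0.0062) and -3.10 in phloridzin livers (adjusted p = 0.0027). These 3 calls held with every liver left out and in every other setting. Cyp2c50 had FPKM of 236, 309 and 255 in control, 81.5, 85.0 and 166 in model, 173, 158 and 92.2 in silibinin and 154, 137 and 115 in phloridzin livers. Its control livers stood above all others, with model 3 the highest model liver and inside the silibinin range. Model against control was -1.33 (adjusted p = 0.0073 by limma), and neither drug group was called against control (-0.96 and -0.97, adjusted p = 0.097 and 0.074), although both were with median-ratio scaling. Cyp2c54 had FPKM of 214, 169.8 and 127 in control, 38.0, 32.2 and 81.4 in model, 78.8, 67.0 and 44.1 in silibinin and 38.2, 70.6 and 57.4 in phloridzin livers. Control livers were again above all others and model 3 above the other model livers. It fell by 1.82 on the log2 scale in model (adjusted p = 0.0041 by limma) and by 1.61 in phloridzin livers (adjusted p = 0.027), and stood at -1.42 in silibinin livers (adjusted p = 0.053). The phloridzin call was lost without control replicate 1, control replicate 2 or phloridzin replicate 1 (log2 fold changes of -1.598 to -1.37 and adjusted p = 0.079 to 0.094), and with the most abundant transcript, without the filter, with only these 2 groups or with the replicate block (adjusted p = 0.051 to 0.056). No comparison of a drug group with model was called in these 3 genes, but Cyp2c37 was higher with silibinin without model replicate 3 (1.35, adjusted p = 0.019). Cyp2c54 in silibinin against control passed without model replicate 3 or phloridzin replicate 1 (adjusted p = 0.033 and 0.036), and with median-ratio scaling, only the 2 groups or a pseudocount of 0.1 (adjusted p = 0.033, 0.043 and 0.041).

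The mRNAs of the 3 genes are between 94.8% and 95.8% identical, so a fragment can be given to the wrong gene, and their sum is given too. Added up, Cyp2c37, Cyp2c50 and Cyp2c54 gave FPKM of 660.0, 659.7 and 506 in control, 129.9, 127 and 274 in model, 283, 255 and 159 in silibinin and 206, 234 and 190.3 in phloridzin livers. The sums of all 9 CCl4 livers were below those of all control livers, and the 3 CCl4 groups overlapped. The ratio to control was 0.291 in model, 0.382 in silibinin and 0.345 in phloridzin livers. Promoters of Cyp2c37 (chr19:39992174-39992473) and Cyp2c50 (chr19:40089429-40089728), both on the plus strand of chromosome 19, are shown because the genes fell together. Capitals mark matches to the same motifs. Both have CCAAT boxes before and after the start site and no TATAAA in this window, and Cyp2c37 also holds TTGCNNAA, read on the other strand.
Cyp2c37: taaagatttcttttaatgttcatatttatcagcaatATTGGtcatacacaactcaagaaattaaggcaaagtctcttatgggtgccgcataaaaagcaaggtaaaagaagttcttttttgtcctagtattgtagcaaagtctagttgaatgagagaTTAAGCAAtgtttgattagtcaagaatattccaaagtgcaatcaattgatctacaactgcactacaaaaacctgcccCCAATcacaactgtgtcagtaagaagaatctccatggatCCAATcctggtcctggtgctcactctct
Cyp2c50: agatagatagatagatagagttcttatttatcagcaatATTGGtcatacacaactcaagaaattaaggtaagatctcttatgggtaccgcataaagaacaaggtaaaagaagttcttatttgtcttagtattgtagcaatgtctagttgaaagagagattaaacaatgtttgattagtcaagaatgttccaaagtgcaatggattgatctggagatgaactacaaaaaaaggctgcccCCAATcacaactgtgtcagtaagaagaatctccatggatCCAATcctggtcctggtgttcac

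The other named Cyp2c members went their own ways. Cyp2c29, a pericentral oxidiser of arachidonate and drugs, had FPKM of 313, 250.5 and 331 in control, 195, 147 and 195 in model, 114, 153 and 239 in silibinin and 157, 235 and 127 in phloridzin livers. Control livers were the 3 highest of the 12, yet no comparison was called, with -0.74 in model against control (adjusted p = 0.072 by limma, and 0.022 with median-ratio scaling, where it was called). Silibinin against control passed only without silibinin replicate 3 (-1.16, adjusted p = 0.040). Cyp2c70, which makes the muricholic acids of mouse bile, had the highest mean of the subfamily over the 12 livers. In control livers the means of Cyp2c29 (298 FPKM) and Cyp2c50 (267 FPKM) were above that of Cyp2c70 (203 FPKM). In silibinin livers that of Cyp2c29 was above it too (169 against 160 FPKM). Cyp2c70 had FPKM of 235, 126 and 248.6 in control, 327, 353 and 228 in model, 166, 149.5 and 164 in silibinin and 192, 214 and 195 in phloridzin livers. Model 1 and 2 were the highest livers, and all silibinin and phloridzin livers were below all model livers. Silibinin against model was -0.89 with adjusted p = 0.039 by limma, short of the fold change needed for a call, and -1.08 (adjusted p = 0.030) without model replicate 3. Cyp2c55, an arachidonate hydroxylase best known from the colon, had FPKM of 0.262, 0.351 and 0.485 in control, 2.29, 2.27 and 2.72 in model, 2.33, 3.08 and 4.49 in silibinin and 4.20, 3.68 and 1.53 in phloridzin livers. Each CCl4 liver was above each control liver. It rose by 1.33 in model (adjusted p = 0.0035 by limma), 1.63 in silibinin (adjusted p = 0.0096) and 1.54 in phloridzin livers (adjusted p = 0.009), the last lost with only these 2 groups in the fit (adjusted p = 0.057). Cyp2c69 had FPKM of 3.28, 7.36 and 0.964 in control, 0, 0.290 and 0 in model, 0.763, 0.138 and 0.359 in silibinin and 0.664, 0.0809 and 0 in phloridzin livers. Control livers were above the others, although control 3 was close to silibinin 1. It fell in model (-1.92, adjusted p = 0.0066 by limma) and in phloridzin livers (-1.76, adjusted p = 0.035), but it passed the filter only through the control group, and without a filter the adjusted p was 0.013 and 0.064. The latter call was lost without control replicate 1, control replicate 2, model replicate 3, phloridzin replicate 2 or phloridzin replicate 3 (log2 fold changes of -1.76 to -1.25 and adjusted p = 0.05 to 0.095), and with the most abundant transcript, without the filter, with only these 2 groups or with voom (adjusted p = 0.063 to 0.13). Silibinin against control passed only without control replicate 3 (-2.10, adjusted p = 0.021) or phloridzin replicate 1 (-1.56, adjusted p = 0.0497). Its mRNA is 96.4% to 98.0% identical to the mRNAs of Cyp2c40, Cyp2c67 and Cyp2c68, named for this likeness after their values were seen, and the 4 genes together had FPKM of 132, 113 and 137 in control, 59.7, 112 and 89.0 in model, 126, 114 and 106 in silibinin and 133, 161 and 82.3 in phloridzin livers.

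Cyp2b10 is the classical target of the constitutive androstane receptor, CAR, and answers to phenobarbital. It had FPKM of 1.71, 3.47 and 0.666 in control, 17.0, 10.2 and 38.0 in model, 5.58, 17.6 and 3.94 in silibinin and 5.89, 5.47 and 6.31 in phloridzin livers. Every CCl4 liver was above every control liver, model 3 was the highest and silibinin 2 lay inside the model range. It rose in model against control by 2.87 (95% interval 1.65 to 4.09, adjusted p = 0.0032 by limma), in all settings. Against model it stood at -1.23 with silibinin and -1.53 with phloridzin, where all 3 livers were below all 3 model livers, and neither passed (adjusted p = 0.17 and 0.099). Its female-biased relative Cyp2b9 had FPKM of 0, 0 and 0 in control, 0, 0.0736 and 1.92 in model, 2.76, 1.32 and 0 in silibinin and 0.0418, 0 and 0 in phloridzin livers. It was above 0 in 5 livers, and model 3 and silibinin 1 and 2 were above 1 FPKM.

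Cyp3a11 is the main target of the pregnane X receptor, PXR. It had FPKM of 262, 857 and 557 in control, 585, 662 and 1795 in model, 1323, 2332 and 2421 in silibinin and 1371, 2658 and 1232 in phloridzin livers. All 3 silibinin and all 3 phloridzin livers were above all 3 control livers, and model 3 was far above the other model livers. The group means were 558 ± 297, 1014 ± 678, 2025 ± 610.0 and 1754 ± 786 FPKM for control, model, silibinin and phloridzin (SD, n = 3 livers). No comparison was called: silibinin against control was 1.96 (adjusted p = 0.063 by limma), phloridzin against control 1.72 (adjusted p = 0.076), and model against control 0.82 (adjusted p = 0.25). The first passed without model replicate 3, with the replicate block and with a pseudocount of 0.1 (adjusted p = 0.049 to 0.050). Cyp3a13, a Cyp3a enzyme shared with the gut, had FPKM of 230.3, 203 and 201 in control, 149, 144 and 96.3 in model, 166, 112 and 162 in silibinin and 63.4, 149 and 302 in phloridzin livers. Model and silibinin livers were all below control livers, and phloridzin livers held the lowest and the highest of the 12. Cyp3a25 had FPKM of 129, 142 and 185 in control, 71.3, 109.9 and 15.1 in model, 90.9, 19.95 and 221 in silibinin and 104, 27.4 and 124 in phloridzin livers. Silibinin livers alone went from 19.95 to 221 FPKM, and neither gene was called. The mRNA of Cyp3a25 is 97.0% identical to that of Cyp3a59, named here after its values were seen, and their summed FPKM was 136, 147 and 198 in control, 78.1, 119.6 and 30.2 in model, 105, 43.9 and 243 in silibinin and 118, 52.5 and 141 in phloridzin livers.

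Family 1 answers to the aryl hydrocarbon receptor, AHR. Cyp1a2, the constitutive pericentral enzyme that oxidises caffeine and arylamines, had FPKM of 162, 200.2 and 171 in control, 166, 201 and 207 in model, 199, 241 and 198 in silibinin and 551, 206 and 162 in phloridzin livers. Apart from phloridzin 1 the livers lay between 162 and 241 FPKM, and no comparison was called. Cyp1a1, the inducible enzyme of polycyclic hydrocarbons, had FPKM of 0.360, 0.369 and 0.247 in control, 2.09, 0.769 and 2.29 in model, 0.286, 0.313 and 0.226 in silibinin and 0.923, 0.198 and 0.181 in phloridzin livers. Model livers were above all control and silibinin livers, and phloridzin 1 lay above model 2. Silibinin against model was called at -1.04 (adjusted p = 0.017 by limma, 0.029 without the filter, which Cyp1a1 passed only through the model group). That call was lost without model replicate 1, model replicate 3, silibinin replicate 1 or silibinin replicate 3 (log2 fold changes of -1.05 to -0.88 and adjusted p = 0.052 to 0.062) and with median-ratio scaling (-0.91). Model against control (0.98, adjusted p = 0.011) and phloridzin against model (-0.91, adjusted p = 0.034) fell short of the fold change. The first was called without control replicate 1 or 2 or model replicate 2 (1.00, 1.01 and 1.27), and the other without model replicate 2 or phloridzin replicate 1 (-1.19 and -1.14). Both were also called with a pseudocount of 0.1 (1.97 and -1.91) and with voom (2.24 and -2.23). Cyp1b1, which oxidises estrogens and retinoids and is known mainly from mesenchymal cells, had FPKM of 0.441, 0.338 and 0.256 in control, 4.32, 3.83 and 1.62 in model, 3.75, 3.52 and 0.710 in silibinin and 0.806, 1.32 and 1.53 in phloridzin livers. All CCl4 livers were above all control livers, model 1 and 2 were the highest, and silibinin 3 was the lowest of the CCl4 livers. It rose by 1.599 in model against control (adjusted p = 0.0089 by limma) in every setting. Silibinin against control was called only without silibinin replicate 3 (1.79, adjusted p = 0.0084) and with a pseudocount of 0.1. The summed stellate cell markers were also higher in every CCl4 liver than in every control liver, but ordered the CCl4 livers differently: phloridzin 1 had the highest sum (342 FPKM) and a Cyp1b1 level of 0.806 FPKM, and silibinin 3 the lowest of both. Their part was not tested.

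Cyp2a4 and Cyp2a5 hydroxylate steroids and coumarin, Cyp2a4 with a female bias and Cyp2a5 in pericentral hepatocytes of both sexes. Cyp2a4 had FPKM of 0.181, 0.233 and 0.0630 in control, 11.4, 6.10 and 18.7 in model, 2.98, 2.64 and 1.36 in silibinin and 6.91, 0.791 and 0.614 in phloridzin livers. Control livers were all under 0.3 FPKM, all CCl4 livers were above them, and phloridzin 1 stood inside the model range while the other phloridzin livers were below it. It rose in model against control by 3.38 (95% interval 2.15 to 4.605, adjusted p = 0.0014 by limma) in all settings. It was lower with silibinin (-1.89, adjusted p = 0.046) and with phloridzin (-2.08, adjusted p = 0.034) than in model livers. The silibinin call was lost without control replicate 1, control replicate 2, control replicate 3, model replicate 1, model replicate 3, silibinin replicate 1, silibinin replicate 2 or silibinin replicate 3 (log2 fold changes of -2.04 to -1.53 and adjusted p = 0.062 to 0.14), and in 6 other settings (adjusted p = 0.050 to 0.083). The phloridzin call was lost without model replicate 1, model replicate 3, phloridzin replicate 2 or phloridzin replicate 3 (log2 fold changes of -2.06 to -1.68 and adjusted p = 0.087 to 0.12), with the most abundant transcript, without the filter and with only these 2 groups (adjusted p = 0.055 to 0.13). Silibinin against control was 1.49 (adjusted p = 0.15), and passed with only these 2 groups, with a pseudocount of 0.1 and without phloridzin replicate 1 (adjusted p = 0.021 to 0.031). Phloridzin against control passed with that pseudocount alone (2.73, adjusted p = 0.047). Cyp2a5 had FPKM of 99.99, 91.1 and 61.2 in control, 85.8, 70.6 and 42.0 in model, 7.003, 15.3 and 75.1 in silibinin and 284, 98.6 and 89.9 in phloridzin livers. Silibinin 1 and 2 were the lowest livers and phloridzin 1 the highest, and silibinin 3 was inside the model range. Silibinin against model was -1.58 (adjusted p = 0.17 by limma), and -2.50 (adjusted p = 0.021) without silibinin replicate 3. Against control it was -1.95 (adjusted p = 0.15), and -2.87 (adjusted p = 0.016) without that liver.

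The mRNAs of Cyp2a4 and Cyp2a5 are 98.3% identical, so a fragment can be given to the wrong gene. Together they had FPKM of 100.2, 91.3 and 61.3 in control, 97.2, 76.7 and 60.8 in model, 9.99, 17.97 and 76.4 in silibinin and 291, 99.4 and 90.5 in phloridzin livers, and model and control livers overlapped in this sum (0.929 as ratio of means). Cyp2a4 rose within a pair whose sum did not separate control from model livers. Their promoters (chr7:26306942-26307241 and chr7:26835089-26835388, plus strand) are shown since they are as close as the mRNAs. Over 299 aligned bases they differ at 5, and capitals mark these 5 bases.
Cyp2a4: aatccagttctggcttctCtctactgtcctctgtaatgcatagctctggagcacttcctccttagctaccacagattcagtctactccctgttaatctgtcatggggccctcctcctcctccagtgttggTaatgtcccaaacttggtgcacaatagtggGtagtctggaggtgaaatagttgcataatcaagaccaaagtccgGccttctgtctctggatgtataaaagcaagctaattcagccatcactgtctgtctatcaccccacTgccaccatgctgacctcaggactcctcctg
Cyp2a5: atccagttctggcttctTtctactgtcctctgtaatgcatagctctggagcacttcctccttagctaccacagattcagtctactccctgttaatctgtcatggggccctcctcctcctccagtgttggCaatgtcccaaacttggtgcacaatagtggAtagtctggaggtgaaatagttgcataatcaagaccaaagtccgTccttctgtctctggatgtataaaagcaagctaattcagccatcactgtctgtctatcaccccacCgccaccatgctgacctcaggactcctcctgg

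Cyp2a12, which hydroxylates steroids and secondary bile acids, was the most abundant Cyp2a member, with FPKM of 151, 194 and 148 in control, 194, 201 and 223 in model, 204, 234 and 218 in silibinin and 251.2, 255 and 223 in phloridzin livers. All phloridzin livers were above all control livers, by 0.57 (adjusted p = 0.039 by limma), short of the fold change for a call. Cyp2a22 had FPKM of 0.254, 0.261 and 0.183 in control, 4.30, 2.90 and 5.82 in model, 2.25, 3.01 and 1.33 in silibinin and 2.57, 1.52 and 1.39 in phloridzin livers. Each CCl4 liver was above each control liver, and each phloridzin liver was below each model liver. It rose in model (2.08, adjusted p = 0.00028 by limma), silibinin (1.34, adjusted p = 0.016) and phloridzin livers (1.17, adjusted p = 0.021) against control. The silibinin call was lost without control replicate 1, control replicate 2, control replicate 3, silibinin replicate 1 or silibinin replicate 2 (log2 fold changes of 1.16 to 1.36 and adjusted p = 0.054 to 0.075). The phloridzin call was lost without control replicate 1, control replicate 2, control replicate 3 or phloridzin replicate 1 (log2 fold changes of 0.99 to 1.19 and adjusted p = 0.062 to 0.065). Phloridzin against model was -0.90 (adjusted p = 0.038), and called without model replicate 2 or phloridzin replicate 1 (-1.11 and -1.08). Its mRNA is 96.7% identical to that of Cyp2a12, whose FPKM was never under 148, so its own level is uncertain. The pair summed to FPKM between 149 and 256, with a ratio of 1.277 for model to control.

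**Figure D4:**
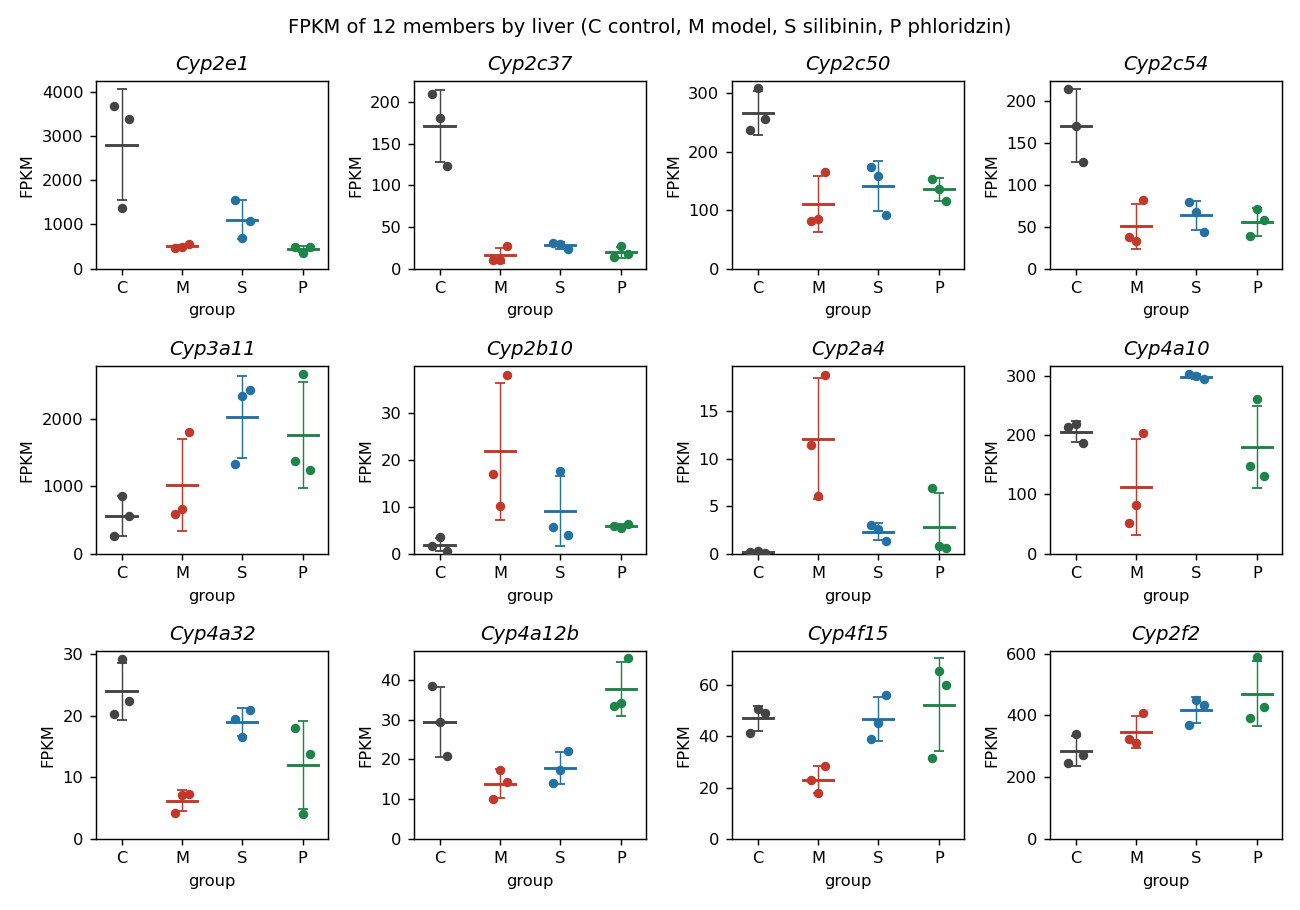
FPKM of 12 members in each liver for control (C), model (M), silibinin (S) and phloridzin (P). Points are livers, bars are means and error bars SD (n = 3 livers). Control points of Cyp2c37, between 124 and 210 FPKM, stand clear of all others, which stay at or under 30.8 FPKM, and the silibinin points of Cyp4a10 stand between 295 and 303 FPKM.

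In the Cyp2d subfamily no member was called. Cyp2d9, a male-biased testosterone hydroxylase, had FPKM of 222, 299 and 214 in control, 135, 139 and 259 in model, 166, 172 and 120.0 in silibinin and 192, 133 and 139.9 in phloridzin livers. Its drug-treated livers were all below its control livers, and model 3 lay inside the control range. Cyp2d26 had FPKM of 134, 138 and 149 in control, 92.2, 184 and 168 in model, 96.5, 192 and 112 in silibinin and 124, 114 and 148 in phloridzin livers, with all groups overlapping. Cyp2d10 had FPKM of 45.8, 42.1 and 42.3 in control, 12.8, 57.3 and 62.2 in model, 33.7, 30.7 and 32.6 in silibinin and 29.7, 31.6 and 5.53 in phloridzin livers, and its low livers were model 1 and phloridzin 3. Cyp2d22 had FPKM of 6.02, 5.62 and 3.73 in control, 10.3, 3.26 and 6.17 in model, 19.1, 6.69 and 9.85 in silibinin and 13.0, 5.19 and 18.8 in phloridzin livers, with the 3 highest livers all in drug groups.

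The named members of subfamilies Cyp2f, Cyp2j, Cyp2r, Cyp2s and Cyp2u were not called by limma. Cyp2f2 had FPKM of 244, 339 and 273 in control, 324, 309 and 407 in model, 371, 449.97 and 435 in silibinin and 392.4, 590.4 and 429 in phloridzin livers. Silibinin and phloridzin livers were all above control livers, with 0.56 and 0.71 against control (adjusted p = 0.14 and 0.056 by limma), and none was called. Cyp2r1, the vitamin D hydroxylase of the liver, had FPKM of 5.66, 4.41 and 6.28 in control, 8.95, 7.94 and 7.53 in model, 7.32, 8.11 and 8.21 in silibinin and 11.7, 7.04 and 7.13 in phloridzin livers. All CCl4 livers were above all control livers, at 0.51 in model (adjusted p = 0.053 by limma). With median-ratio scaling this was 0.12. Cyp2u1, a fatty acid hydroxylase, had FPKM of 10.5, 13.8 and 11.9 in control, 6.51, 5.74 and 6.41 in model, 7.83, 7.62 and 9.13 in silibinin and 5.78, 8.63 and 5.67 in phloridzin livers. All CCl4 livers were below all control livers. Model against control was -0.85 (adjusted p = 0.0031) and phloridzin against control -0.78 (adjusted p = 0.02), short of the fold change on the deposited scale and called with median-ratio scaling (-1.25 and -1.02). Cyp2j5, an epoxygenase of kidney and liver, had FPKM of 0.397, 0.267 and 185 in control, 2.05, 10.2 and 0.592 in model, 0.324, 0.327 and 3.11 in silibinin and 0.230, 7.10 and 0.641 in phloridzin livers. A single liver, control 3, made its control mean, and the other 11 were at most 10.2 FPKM. Cyp2s1, an epithelial P450, had FPKM of 0.211, 0.242 and 0.262 in control, 0.209, 0.0832 and 0.536 in model, 0.950, 0.526 and 0.826 in silibinin and 1.90, 0.557 and 0.4995 in phloridzin livers. All silibinin and phloridzin livers were above all control livers, with 0.51 and 0.61 against control (adjusted p = 0.24 and 0.14 by limma).

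Family 4 hydroxylates fatty acids at the end of the chain, and Cyp4a10 and Cyp4a14 are classical targets of the receptor PPAR alpha. Cyp4a10 had FPKM of 213, 218 and 186 in control, 51.6, 82.1 and 204 in model, 303, 299.6 and 295 in silibinin and 148, 260.4 and 132 in phloridzin livers. The 3 silibinin livers were the highest of the 12, model 1 and 2 the lowest, and model 3 reached the control range. Silibinin against model was 1.64 (adjusted p = 0.026 by limma). The call was lost without model replicate 1, model replicate 2, silibinin replicate 1, silibinin replicate 2 or silibinin replicate 3 (log2 fold changes of 1.20 to 1.65 and adjusted p = 0.064 to 0.085), with the most abundant transcript (adjusted p = 0.058) and with only these 2 groups (adjusted p = 0.070). Model against control was -1.10 (adjusted p = 0.062) and not called, but -1.64 (adjusted p = 0.0040) without model replicate 3, and -1.54 (adjusted p = 0.023) with median-ratio scaling. Phloridzin against model was 0.84 (adjusted p = 0.22), and 1.39 (adjusted p = 0.019) without that liver. Cyp4a31 had FPKM of 9.20, 5.51 and 13.7 in control, 12.2, 6.75 and 10.4 in model, 38.3, 21.2 and 22.3 in silibinin and 17.1, 10.4 and 8.97 in phloridzin livers. Silibinin livers were the 3 highest. It was higher with silibinin than in model (1.37, adjusted p = 0.026 by limma) and in control livers (1.46, adjusted p = 0.041). The call against model was lost without model replicate 2, model replicate 3, silibinin replicate 1 or silibinin replicate 3 (log2 fold changes of 1.11 to 1.49 and adjusted p = 0.05 to 0.096) and with the most abundant transcript (adjusted p = 0.42). The call against control was lost without control replicate 1, control replicate 2, model replicate 1, model replicate 3, phloridzin replicate 2, silibinin replicate 1, silibinin replicate 2 or silibinin replicate 3 (log2 fold changes of 1.16 to 1.61 and adjusted p = 0.052 to 0.15), with the most abundant transcript, with median-ratio scaling, without the filter and with only these 2 groups (adjusted p = 0.070 to 0.52).

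Cyp4a32 had FPKM of 20.3, 29.3 and 22.4 in control, 4.27, 7.05 and 7.35 in model, 19.5, 16.6 and 20.9 in silibinin and 18.1, 4.07 and 13.7 in phloridzin livers. Model livers were all below control and silibinin livers, and phloridzin 2 was as low as the model livers. It fell in model against control by 1.81 on the log2 scale (adjusted p = 0.0071 by limma) in all settings, and was higher with silibinin than in model (1.49, adjusted p = 0.035). The latter call was lost without model replicate 1, model replicate 2, model replicate 3, silibinin replicate 1, silibinin replicate 2 or silibinin replicate 3 (log2 fold changes of 1.281 to 1.61 and adjusted p = 0.058 to 0.11), and with the most abundant transcript, without the filter or with the replicate block (adjusted p = 0.055 to 0.062). Phloridzin against model was 0.67 (adjusted p = 0.32), and 1.24 (adjusted p = 0.016) without phloridzin replicate 2. The mRNAs of Cyp4a10, Cyp4a31 and Cyp4a32 are 95.8% to 97.3% identical. Their summed FPKM was 243, 253 and 222 in control, 68.0, 95.9 and 222 in model, 361, 337 and 338 in silibinin and 183, 275 and 154 in phloridzin livers. Silibinin livers were above all others in this sum, by a ratio of 1.44 to control, model 3 was far above the other model livers, and model and control livers came close only in model 3 and control 3. The promoter of Cyp4a32 (chr4:115600688-115600987, plus strand), the member of this trio called in both model against control and silibinin against model, is shown with motif matches in capitals. They are an HNF1 site 130 bases before the start site, a TATAAA and a CCAAT box, both read on the other strand.
Cyp4a32: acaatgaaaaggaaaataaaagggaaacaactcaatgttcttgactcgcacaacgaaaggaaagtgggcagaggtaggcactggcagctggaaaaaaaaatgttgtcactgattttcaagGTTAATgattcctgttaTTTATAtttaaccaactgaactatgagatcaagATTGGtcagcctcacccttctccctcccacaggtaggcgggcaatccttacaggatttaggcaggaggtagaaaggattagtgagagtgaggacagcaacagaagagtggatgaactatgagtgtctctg

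Cyp4a12a and Cyp4a12b are male-biased fatty acid hydroxylases with mRNAs 98.3% identical. Cyp4a12a had FPKM of 51.3, 107 and 54.7 in control, 24.3, 33.5 and 33.3 in model, 21.4, 23.5 and 39.7 in silibinin and 92.6, 52.1 and 58.4 in phloridzin livers. Model and silibinin livers were below all control livers and all phloridzin livers. It fell in model against control (-1.13, adjusted p = 0.023 by limma), a call lost without control replicate 2 or model replicate 1 (log2 fold changes of -0.99 to -0.80 and adjusted p = 0.077 to 0.08). Phloridzin against model was 1.10 (adjusted p = 0.054), and passed with median-ratio scaling and without control replicate 2 or silibinin replicate 3. Silibinin against control was -1.27 (adjusted p = 0.053), and passed with median-ratio scaling, a pseudocount of 0.1 and voom, and without phloridzin replicate 1 or silibinin replicate 3 (adjusted p = 0.032 to 0.049). Cyp4a12b had FPKM of 38.4, 29.3 and 20.8 in control, 9.93, 17.4 and 14.4 in model, 14.1, 17.4 and 22.1 in silibinin and 33.4, 34.3 and 45.4 in phloridzin livers. Model livers were all below control and phloridzin livers, and silibinin 3 was above control 3. It fell in model against control (-1.03, adjusted p = 0.012 by limma), lost without control replicate 1 or model replicate 1 (-0.82 in both, adjusted p = 0.046). It was higher with phloridzin than in model livers by 1.40 (adjusted p = 0.0068) in every setting. The pair summed to FPKM of 89.8, 137 and 75.5 in control, 34.3, 50.9 and 47.7 in model, 35.5, 40.9 and 61.7 in silibinin and 126, 86.3 and 104 in phloridzin livers, and in this sum all phloridzin livers stood above all model and all silibinin livers. Ratios to model were 2.38 with phloridzin and 1.04 with silibinin.

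No Cyp4a member was called in phloridzin against silibinin by limma, and the summed Cyp4a livers of the 2 drugs overlapped (ratio 1.05). Cyp4a14 and Cyp4a32 overlapped too. For the other 4, chosen here for groups that did not overlap, the log2 fold change was 1.24 for Cyp4a12a, 1.04 for Cyp4a12b, -1.10 for Cyp4a31 and -0.79 for Cyp4a10, with 95% intervals of 0.51 to 1.97, 0.47 to 1.62, -1.88 to -0.32 and -1.71 to 0.13. The adjusted p of all 4 was 1 by limma. Groups did not overlap and the adjusted p was 1 also for Cyp2e1 (-1.26, interval -2.12 to -0.40) and Cyp2a5 (2.67, interval 1.09 to 4.26). Livers of the 2 drugs did not overlap in Cyp2c70, Cyp4b1 and Cyp4f17 either, and none of these was called between the drugs. The 95% intervals above are unadjusted and belong to genes picked for groups that did not overlap. They therefore cannot show a difference between the drugs. How many of all tested genes had groups that did not overlap was not counted. Cyp4a14 had FPKM of 39.1, 47.9 and 60.9 in control, 61.1, 108 and 38.1 in model, 47.6, 53.2 and 216 in silibinin and 266, 38.7 and 333 in phloridzin livers. Phloridzin 1 and 3 and silibinin 3 were the only livers above 110 FPKM, and no comparison was called, with 1.62 in phloridzin against control (adjusted p = 0.24 by limma) and 2.59 (adjusted p = 0.047) without phloridzin replicate 2.

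**Figure D5:**
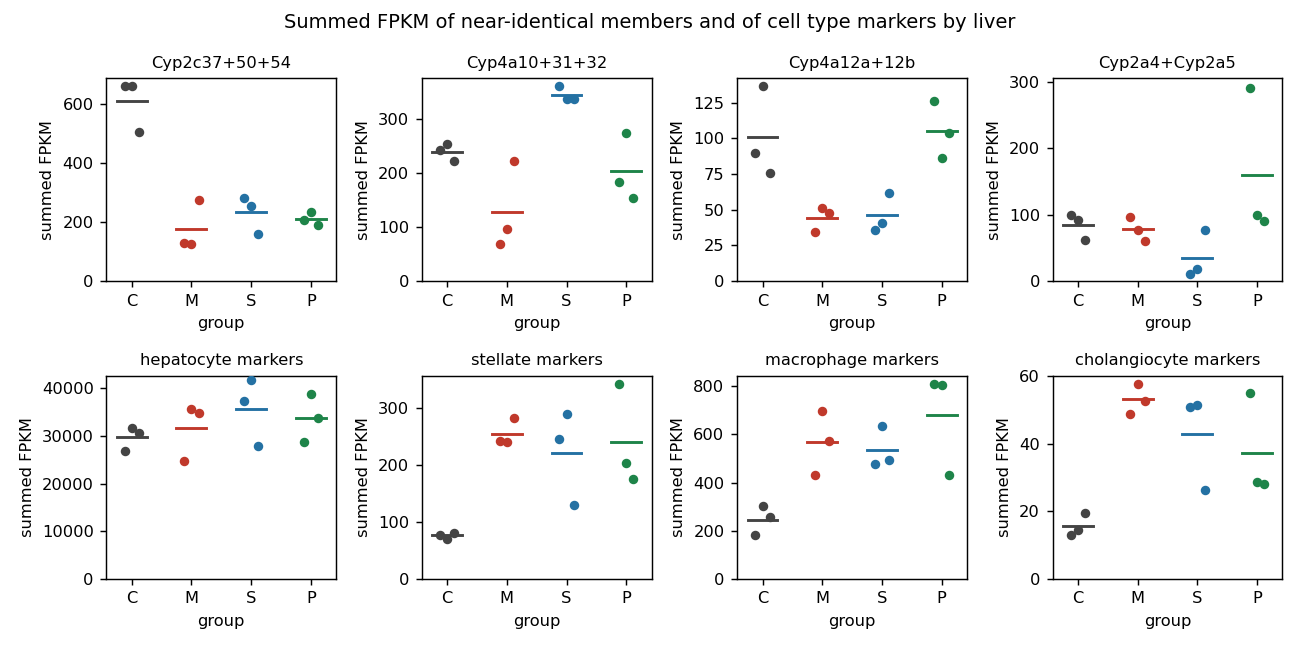
Summed FPKM in each liver of 4 groups of near-identical members (top) and of hepatocyte, stellate cell, macrophage and cholangiocyte markers (bottom) for control (C), model (M), silibinin (S) and phloridzin (P). Points are livers and bars are means. The silibinin points of the Cyp4a10, Cyp4a31 and Cyp4a32 sum lie between 337 and 361 FPKM, above all others, and the control points of the stellate cell markers lie between 70.6 and 80.6 FPKM, below all others.

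Cyp4f members oxidise leukotrienes and other fatty acids. Cyp4f14, the most abundant, had FPKM of 55.4, 55.4 and 33.5 in control, 51.02, 58.5 and 63.2 in model, 60.0, 67.3 and 60.5 in silibinin and 57.0, 73.5 and 46.8 in phloridzin livers and was not called. Control 3 was its lowest liver. Cyp4f15 had FPKM of 41.5, 50.8 and 49.0 in control, 22.8, 17.8 and 28.4 in model, 39.1, 45.3 and 56.0 in silibinin and 31.5, 65.5 and 59.9 in phloridzin livers. All model livers were below all livers of the other groups. It fell in model against control (-1.02, adjusted p = 0.015 by limma) and was higher with silibinin (1.00, adjusted p = 0.032) and with phloridzin (1.11, adjusted p = 0.023) than in model livers, the only member called higher with both drugs. All 3 values lie near the fold change needed for a call. The first call was lost without control replicate 2, control replicate 3 or model replicate 2 (log2 fold changes of -0.99 to -0.85 and adjusted p = 0.043 to 0.056). The silibinin call was lost without model replicate 1, model replicate 2, silibinin replicate 1, silibinin replicate 2 or silibinin replicate 3 (log2 fold changes of 0.84 to 1.12 and adjusted p = 0.05 to 0.11) and without the filter (adjusted p = 0.053). The phloridzin call was lost without model replicate 1, model replicate 2, phloridzin replicate 2 or phloridzin replicate 3 (log2 fold changes of 0.91 to 1.11 and adjusted p = 0.061 to 0.088) and with only these 2 groups (adjusted p = 0.10).

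Cyp4f16 had FPKM of 2.20, 1.65 and 1.44 in control, 4.29, 4.02 and 5.27 in model, 6.52, 5.07 and 3.85 in silibinin and 5.83, 4.39 and 3.65 in phloridzin livers. All CCl4 livers were above all control livers. It was called in model (1.00, adjusted p = 0.0038 by limma), silibinin (1.14, adjusted p = 0.013) and phloridzin livers (1.02, adjusted p = 0.016) against control. All 3 calls were lost with median-ratio scaling (0.68, 0.98 and 0.83) and with the most abundant transcript (0.33, 0.89 and 0.56). The phloridzin call was also lost with only these 2 groups (adjusted p = 0.063). The model call was lost without control replicate 2, control replicate 3 or model replicate 3 (log2 fold changes of 0.91 to 0.98 and adjusted p = 0.015 to 0.017), the silibinin call without control replicate 2, silibinin replicate 1 or silibinin replicate 2 (log2 fold changes of 0.98 to 1.14 and adjusted p = 0.051 to 0.06), and the phloridzin call without control replicate 2, control replicate 3 or phloridzin replicate 1 (log2 fold changes of 0.87 to 0.99 and adjusted p = 0.048 to 0.056). Cyp4f18, a leukotriene oxidase known from neutrophils, had FPKM of 0.297, 0.175 and 0.424 in control, 1.22, 1.69 and 2.22 in model, 1.16, 1.47 and 0.948 in silibinin and 2.18, 1.37 and 1.13 in phloridzin livers. Control livers were all under 0.5 and all others above 0.9 FPKM. It rose in model against control (1.05, adjusted p = 0.002 by limma), a call lost without control replicate 2 or model replicate 3 (log2 fold changes of 0.91 to 0.98 and adjusted p = 0.0089 to 0.01) and with median-ratio scaling (0.85). Phloridzin against control was 0.96, and called without control replicate 3 or phloridzin replicate 2 or 3 (1.03, 1.01 and 1.09). Both drug groups were called against control with a pseudocount of 0.1 (1.73 with silibinin and 2.06 with phloridzin) and with voom (2.12 and 2.45). The lymphocyte and macrophage marker sums were higher in all CCl4 livers than in all control livers too, and their part was not tested. Cyp4v3, whose human counterpart is mutated in a retinal dystrophy, had FPKM of 74.7, 102 and 77.7 in control, 64.5, 74.5 and 85.2 in model, 107, 118 and 91.6 in silibinin and 93.0, 101 and 69.9 in phloridzin livers, and Cyp4b1, which activates plant furans in the lung, was between 7.11 and 15.2 FPKM. Neither was called.

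Known place and sex bias cross these subfamilies. Of 8 members that are higher near the central vein (Cyp1a2, Cyp2a5, Cyp2c29, Cyp2c37, Cyp2c50, Cyp2c54, Cyp2e1 and Cyp3a11), 4 fell and 0 rose in model against control, where 1.08% of all tested genes fell and 9.42% rose, with a median of -1.03 beside 0.34 over all tested genes. The falls were those of Cyp2e1 and of Cyp2c37, Cyp2c50 and Cyp2c54, whose near-identical mRNAs mean that their calls are not independent. The median of the 8 was 0.39 in silibinin and 0.37 in phloridzin against model, with 0 called by limma in either direction. Against control 1 was lower in silibinin livers (median -1.13, beside 0.243% of all tested genes lower) and 3 in phloridzin livers (median -0.90, beside 0.289%). Their summed FPKM was 5176, 3431 and 5012 in control, 1637, 1696 and 3061 in model, 3479, 3679.8 and 4179 in silibinin and 3049, 3789 and 2289 in phloridzin livers, with no model liver above any control liver, and Cyp3a11 and Cyp2e1 made most of it. The periportal Cyp2f2 was not called in any comparison. Of the 3 male-biased members, Cyp4a12a and Cyp4a12b fell and Cyp2d9 was not called in model against control, and Cyp4a12b rose with phloridzin. The mRNAs of Cyp4a12a and Cyp4a12b are near-identical too. Of the 8 female-biased members 4 were tested. Cyp2a4 rose and Cyp2c69 fell in model against control, but Cyp2c69 passed the filter only through the control group. Cyp2a4 was also called lower with each drug than in model livers, and Cyp2c69 lower in phloridzin than in control livers. These drug group calls were lost in some settings. The 8 together held FPKM of 4.45, 8.49 and 1.71 in control, 14.1, 8.30 and 28.7 in model, 8.45, 5.86 and 8.96 in silibinin and 8.47, 3.91 and 3.05 in phloridzin livers. Model 2 was inside the control range, so the model and control sums overlapped.

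Partners of these enzymes were listed too. None of the 5 electron donor genes was called by limma, from the most abundant, Pgrmc1, a heme-binding partner of P450s, at 460.1 to 756 FPKM, to Por, the gene of the P450 reductase. Por had FPKM of 197, 109.7 and 88.3 in control, 67.8, 62.8 and 86.8 in model, 77.7, 67.6 and 156 in silibinin and 70.5, 147 and 205 in phloridzin livers. All model livers were below all control livers, at -0.78 (adjusted p = 0.19). Of 8 heme synthesis genes, Alas1, the first and rate-limiting step, rose in model against control and none fell, where 9.42% of all tested genes rose. The median of the 8 was 0.05 (-0.33 with median-ratio scaling), beside 0.34 over all tested genes. The FPKM of Alas1 was 25.5 to 32.9 in model livers, above the 6.75 to 21.7 of all others. Its control livers had 21.7, 6.75 and 14.9 FPKM, and control 2 was the lowest of the 12 livers. Model against control was 1.06 (adjusted p = 0.033 by limma), not called with median-ratio scaling, and -1.13 for silibinin against model (adjusted p = 0.05, not called). Cpox, the most abundant of the heme genes, was between 34.4 and 61.9 FPKM and was not called.

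Of 22 receptors and factors known to regulate P450 genes, up or down, 21 were tested and 0 were called in model against control by limma, where 9.42% of all tested genes rose and 1.08% fell. With each drug 1 of the 21 was lower than in model livers, beside 3.25% of all tested genes with silibinin and 2.92% with phloridzin. It was Cebpb, a factor of the acute phase, lower with silibinin (-1.13, adjusted p = 0.0078) and phloridzin (-1.12, adjusted p = 0.0085) than in model livers, with FPKM of 78.1, 74.9 and 58.5 in control, 103, 172 and 98.8 in model, 62.2, 45.8 and 57.5 in silibinin and 50.3, 55.7 and 59.3 in phloridzin livers. Model livers were the 3 highest, and neither fall was called with median-ratio scaling. Cebpa, the most abundant of the list, had FPKM of 154, 157 and 134 in control, 92.0, 64.6 and 108 in model, 151, 154 and 134 in silibinin and 152, 137 and 116 in phloridzin livers and was not called, with all model livers lowest.

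P450 genes outside families 1 to 4 were listed beside them. Of 20 on the list, 17 were in the table (Cyp11b1, Cyp19a1 and Cyp24a1 were not) and 13 were tested. In model against control 4 rose and 2 fell, where 9.42% of all tested genes rose and 1.08% fell, with a median of 0.64 beside 0.34 over all tested genes. With silibinin 1 was higher and 1 lower than in model livers (beside 0.745% and 3.25% of all tested genes), and with phloridzin 2 and 1 (beside 0.6% and 2.92%). Against control 2 were higher and 1 lower in silibinin livers (beside 1.74% and 0.243%), and 2 and 0 by limma in phloridzin livers (beside 2.74% and 0.289%). Cyp8b1, which makes cholic acid, fell by 3.01 on the log2 scale (adjusted p = 0.00018 by limma). It had FPKM of 263, 333 and 195 in control, 35.1, 18.1 and 47.3 in model, 137, 128 and 193 in silibinin and 185, 160.4 and 136 in phloridzin livers, and no control liver met a model liver. With silibinin and phloridzin it was higher than in model livers by 2.23 and 2.32 (adjusted p = 0.0017 and 0.0015). Cyp7b1, the oxysterol hydroxylase, fell in model (-2.71, adjusted p = 0.002) and silibinin livers (-2.47, adjusted p = 0.019) against control. Cyp7a1, the rate-limiting enzyme of bile acid synthesis, was higher with phloridzin than in model livers (2.60, adjusted p = 0.031 by limma). It had FPKM of 36.7, 26.9 and 22.9 in control, 24.1, 3.64 and 23.4 in model, 38.0, 35.7 and 107 in silibinin and 43.3, 135 and 105 in phloridzin livers. Model 2 was far below the other model livers. Rises in model against control were those of Cyp26b1, which clears retinoic acid (1.45), Cyp39a1, an oxysterol hydroxylase (1.62), Ptgis, the prostacyclin synthase (1.70), and Tbxas1, the thromboxane synthase (1.22), with adjusted p between 0.00060 and 0.0025 by limma, of which that of Tbxas1 was not called with median-ratio scaling. Cyp26b1 was lower with silibinin (-1.03) and phloridzin (-1.31) than in model livers (adjusted p = 0.0081 and 0.0027), the former not called with median-ratio scaling. Cyp39a1 and Ptgis were also higher than control in silibinin (1.29 and 1.40) and phloridzin livers (1.10 and 1.41), except Cyp39a1 with phloridzin under median-ratio scaling.

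Promoters were found for 56 of the 69 members among 32851 in the RefSeq table. TATAAA occurred on either strand in 27 of the 56 (48.2%) and in 13.6% of all promoters. The other motifs were CCAAT in 26 members (46.4%, beside 37.4% of all), TTGCNNAA in 13 (23.2%, beside 10.8%), AGGTCA in 16 (28.6%, beside 16.3%), GTTAAT in 8 (14.3%, beside 7.10%) and GCGTG in 10 (17.9%, beside 32.4%). Of the members that rose in model against control all 7 had an entry, and of the 9 that fell 6 had one. TATAAA was in 3 of the 7 and 3 of the 6, CCAAT in 4 and 5, GTTAAT in 1 and 2, TTGCNNAA in 2 and 2, AGGTCA in 1 and 0, and GCGTG in 3 and 0. Related genes of a cluster share promoter letters, as Cyp2a4 and Cyp2a5 show, so these promoters are not independent of each other, and no motif was tested.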

How the data were processed

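Liver RNA of 12 mice (4 groups of 3) was analysed from the deposited table, in which the authors give 1 FPKM value per transcript and liver for 169430 transcripts. Per the submitters' processing notes, reads went through bcl2fastq, FastQC 0.11.5, HISAT2 2.1.0 on mm10, StringTie 1.3.3b and DESeq 1.28.0. FPKM were summed per symbol and liver. The 87294 NONCODE and assembled transcripts carry no symbol and are in no sum. Library sizes were recovered from the FPKM of transcripts of at least 3000 bases.

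Genes with a mean of at least 0.5 FPKM (13158) were fitted as log2(FPKM + 1) in limma 3.58.1 (R 4.3.3) with a variance trend and group as the only term. Tests were two-sided, with Benjamini-Hochberg adjustment over all 13158 genes in each of 6 comparisons. Near-identical members were linked where their most abundant protein-coding mRNAs (GENCODE M21), aligned with Biopython 1.88, were at least 94% identical, over 142 pairs within subfamilies, of which 17 passed and formed 8 groups of 20 genes. Grouping was chosen after the values were seen. Python 3.11.15, pandas 2.3.3, numpy 2.4.6 and matplotlib 3.10.9 were used. The fit was tested on simulated data.

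Named genes are a panel of 33 members, every other member called in at least 1 comparison, the most abundant member of each subfamily, and, of the other lists, called genes and the most abundant one. Members and lists were chosen with earlier results of these data known. Alternatives were a filter at a mean of 1 or none, a pseudocount of 0.1, no fold change cutoff, only the 2 groups compared, the replicate number as a block, the most abundant transcript per gene, Ensembl transcripts only, median-ratio scaling, voom of limma on fragment numbers recovered from FPKM, and each liver left out in turn.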

Additional observations from a re-analysis of the deposited data

How the results depend on the processing

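With median-ratio scaling the count of members lower in model against control was 14, lower in silibinin against model 0, higher and lower in silibinin against control 2 and 4, and the ratio of summed FPKM of model to control 0.448. With the most abundant transcript, silibinin against model had 1 higher and 0 lower, phloridzin against model 0 lower, silibinin against control 2 higher and phloridzin against control 1 lower. Without the filter, silibinin against model had 2 higher and 1 lower, phloridzin against model 0 lower and phloridzin against control 2 lower. With the filter at a mean of 1, silibinin against model had 1 lower. With no fold change cutoff, phloridzin against model had 3 lower and phloridzin against control 5 higher. With only the 2 groups compared, phloridzin against model had 1 higher and 0 lower, silibinin against control 2 lower, and phloridzin against control 1 higher and 2 lower. With a pseudocount of 0.1, silibinin against model had 1 lower, phloridzin against model 2 lower, silibinin against control 8 higher and 3 lower, and phloridzin against control 5 higher. The voom fit gave 1 lower in silibinin against model, 2 in phloridzin against model and 2 in silibinin against control. The causes were not tested. Ensembl transcripts only gave the same values by construction, since no other transcript carries a symbol, so that setting tests nothing.

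Numbers in the sample titles were also tried as a replicate block. That gave 1 lower in silibinin against model and 2 lower in silibinin against control. Residuals of livers with the same number correlated between -0.091 and 0.10 over 18 pairs of livers, with 1 above 0.1, so the numbers do not pair the livers.

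Without Alb, chosen after seeing the data, the ratio of summed hepatocyte markers of model to control was 0.744 in place of 1.07, of silibinin to control 0.788 in place of 1.20 and of phloridzin to control 0.843 in place of 1.14.

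Leaving out each liver in turn gave 5 to 8 members higher and 7 to 10 lower in model against control, 0 to 5 and 0 to 2 in silibinin against model, 1 to 3 and 0 to 3 in phloridzin against model, 1 to 5 and 1 to 5 in silibinin against control, 1 to 5 and 2 to 5 in phloridzin against control, and 0 to 0 in both directions in phloridzin against silibinin. Ratios of summed FPKM were 0.535 to 0.668, 1.34 to 1.68, 1.21 to 1.51, 0.833 to 0.933, 0.749 to 0.854 and 0.837 to 0.953 in the order of these comparisons.

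FPKM carries no correction for library composition, and assembled transcripts without a symbol took 25.5% to 29.8% of the FPKM in control livers and 19.4% to 21.3% in the others. Their part in the P450 values was not tested.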
